A study of Mus musculus with 16 samples.

Results

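The genes that license replication origins were measured in mouse embryonic stem cells (ESCs) with and without knockdown of RAM, the activating subunit of the mRNA cap methyltransferase RNMT. The set was chosen by name and holds 10 genes of the 46983 in the count table: the helicase subunit genes Mcm2, Mcm3, Mcm4, Mcm5, Mcm6 and Mcm7, the helicase loader genes Cdc6 and Cdt1, and Cdc45 and Mcm10, whose products act when the helicase is started. All 10 were among the 12805 genes tested, which reached at least 1 CPM, a read count scaled to a common library size, in at least 10 of the 16 libraries.

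All libraries came from 46C cells, a single 129Ola ESC line that reports Sox1 by GFP, grown with leukaemia inhibitory factor on gelatin. Cells received RAM siRNA (siRAM) or a non-targeting control siRNA (Ct) and were lysed 48 hours later after a brief cycloheximide treatment, which holds ribosomes on the mRNA. Part of each cytoplasmic extract was kept as input and the rest was spun through a sucrose gradient, from which fractions 17 to 22 were pooled as polysomes. Each of the 4 groups (input Ct, input siRAM, polysome Ct and polysome siRAM) held 4 libraries of ribosomal RNA-depleted total RNA. The study's text calls the replicates biological and says that the gradient experiment was done on 4 independent occasions, while the labels give only their numbers.

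In G1 phase the origin recognition complex, Cdc6 and Cdt1 load the ring of Mcm2 to Mcm7 onto DNA as an inactive pair of helicases, and this step is what licensing means. At the onset of S phase, kinases recruit Cdc45 and the GINS complex to the ring, Mcm10 helps to start it, and Geminin binds Cdt1 so that no origin is licensed again. ESCs cycle rapidly with a short G1 and are known for abundant licensing proteins, and the mRNA cap that RNMT and RAM methylate is bound by the factors that bring an mRNA to the ribosome.

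Library totals lay between 16647523 and 20147833 counts. Ramac, which encodes RAM, had 10.7 ± 0.606 CPM in input Ct and 3.0 ± 0.232 CPM in input siRAM (SD, n = 4), a log2 fold change of -1.84 ± 0.11 (SE; edgeR quasi-likelihood test, Benjamini-Hochberg adjusted p = 7.24e-06). In polysomes its log2 fold change was -2.52 (edgeR adjusted p = 0.128, and 2.36e-05 with the replicate number as a block). Same-numbered libraries deviated from their group means together in every pair, so each count of calls is given without and with the replicate block where the 2 fits differ. Replicate 2 of polysome siRAM stood apart: the 10 licensing genes summed to 3927 CPM there and to between 1723 and 2362 CPM in the other polysome siRAM libraries. All 8 ESC marker genes averaged at least 1 CPM in every group. Of the 6 mesoderm markers, T, Mesp1, Mixl1, Tbx6 and Hand1 stayed under 1 CPM on average in every group. The remaining mesoderm marker, Eomes, averaged 14.8 CPM in input Ct and 11.9 CPM in input siRAM. Vim, of the fibroblast list, averaged 228.7 and 156.7 CPM in the same groups.

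The promoters of these genes are classical targets of the E2F factors, which switch on S phase genes, and short stretches of them are shown. Since the genes are known as such targets, E2F-type matches among them are a description and no independent finding. RefSeq promoters (GRCm38.p6; 250 bases before to 50 after a transcription start) were found for 9 of the 10 genes, Mcm7 with 2, and none for Mcm4. They were searched on both strands for 4 E2F-type motifs, TTTCCCGC, TTTCGCGC, TTTGCCGC and TTTGGCGC, which can overlap one another. At least 1 was found for 6 of the 9 genes, compared with 744 of all 32851 promoters (2.26%) and 492 of the 9736 tested genes with a promoter (5.05%). No match was found for Mcm2, Cdc45 and Mcm10. A match is a description of the letters and no binding was measured. The match nearest the start of each gene is shown 5′ to 3′ on the strand of the gene, with the position of the window, the position of the motif relative to the start (negative before it) and the matching letters in capitals.
Mcm3 (chr1:20820275-20820304, minus strand, motif at 19): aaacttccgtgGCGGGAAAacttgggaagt
Mcm5 (chr8:75109349-75109378, plus strand, motif at -149): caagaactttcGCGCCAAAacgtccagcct
Mcm6 (chr1:128359734-128359763, minus strand, motif at -47): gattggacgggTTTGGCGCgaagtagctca
Mcm7 (chr5:138171849-138171878, minus strand, motif at 16): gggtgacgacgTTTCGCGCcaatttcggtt
Cdc6 (chr11:98908002-98908031, plus strand, motif at -138): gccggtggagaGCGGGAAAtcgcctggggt
Cdt1 (chr8:122568036-122568064, plus strand, motif at 32): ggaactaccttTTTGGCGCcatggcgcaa

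In control input the top 5 of the 10 genes were helicase subunits. Their levels were compared as CPM per kilobase of exon (GENCODE vM21 models on GRCm38, all exons of a gene merged). Mcm6 (ENSMUSG00000026355, chr1:128331590-128359664) was highest at 105 ± 7.08 CPM per kb (SD, n = 4), and its range did not overlap that of the next gene. Mcm5 (ENSMUSG00000005410, chr8:75109569-75128439) followed at 70.4 ± 4.90, Mcm7 (ENSMUSG00000029730, chr5:138164583-138172422) at 67.0 ± 5.26 and Mcm4 (ENSMUSG00000022673, chr16:15623897-15637400) at 63.2 ± 4.10 CPM per kb. Mcm3 (ENSMUSG00000041859, chr1:20802968-20820312) came next at 60.1 ± 5.6 CPM per kb, and the neighbours from Mcm5 to Mcm3 overlapped. Mcm2 (ENSMUSG00000002870, chr6:88883474-88898780) was lowest of the ring at 36.6 ± 3.13 CPM per kb, below Cdt1. Its merged exons are 6.96 kb long against 3371 bases in its principal transcript, and by principal transcript Mcm2 took rank 4 and Mcm4 rank 7, with Mcm6 at rank 1 and Mcm7 at rank 2.

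Among the loaders, Cdt1 (ENSMUSG00000006585, chr8:122568015-122573554) had 47.7 ± 3.54 CPM per kb, between Mcm3 and Mcm2. Cdc6 (ENSMUSG00000017499, chr11:98907801-98923940) was the lowest of all 10 at 11.8 ± 0.458 CPM per kb. Of the activators, Mcm10 (ENSMUSG00000026669, chr2:4989714-5012791) had 20.9 ± 1.23 and Cdc45 (ENSMUSG00000000028, chr16:18780447-18811987) 15.6 ± 0.911 CPM per kb. From Mcm3 down to Cdc6 no neighbours in this order by merged exons overlapped in control input. By principal transcript Cdc45 and Cdc6 averaged 25.5 and 24.1 CPM per kb, and Cdt1 at 68.4 stood below Mcm2 at 75.5. The order of Mcm10, Cdc45 and Cdc6 at the bottom and of Mcm6 at the top also held in input siRAM. In both polysome groups Cdc45 stood above Mcm10, and Mcm6 was again first. Exons of Mcm7 overlap those of Ap4m1 and Cops6 on the other strand over 385 bases, and exons of Cdc45 overlap those of Ufd1 over 209 bases. Whether the authors counted by strand is not given in the sources used here.

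**Figure D1:**
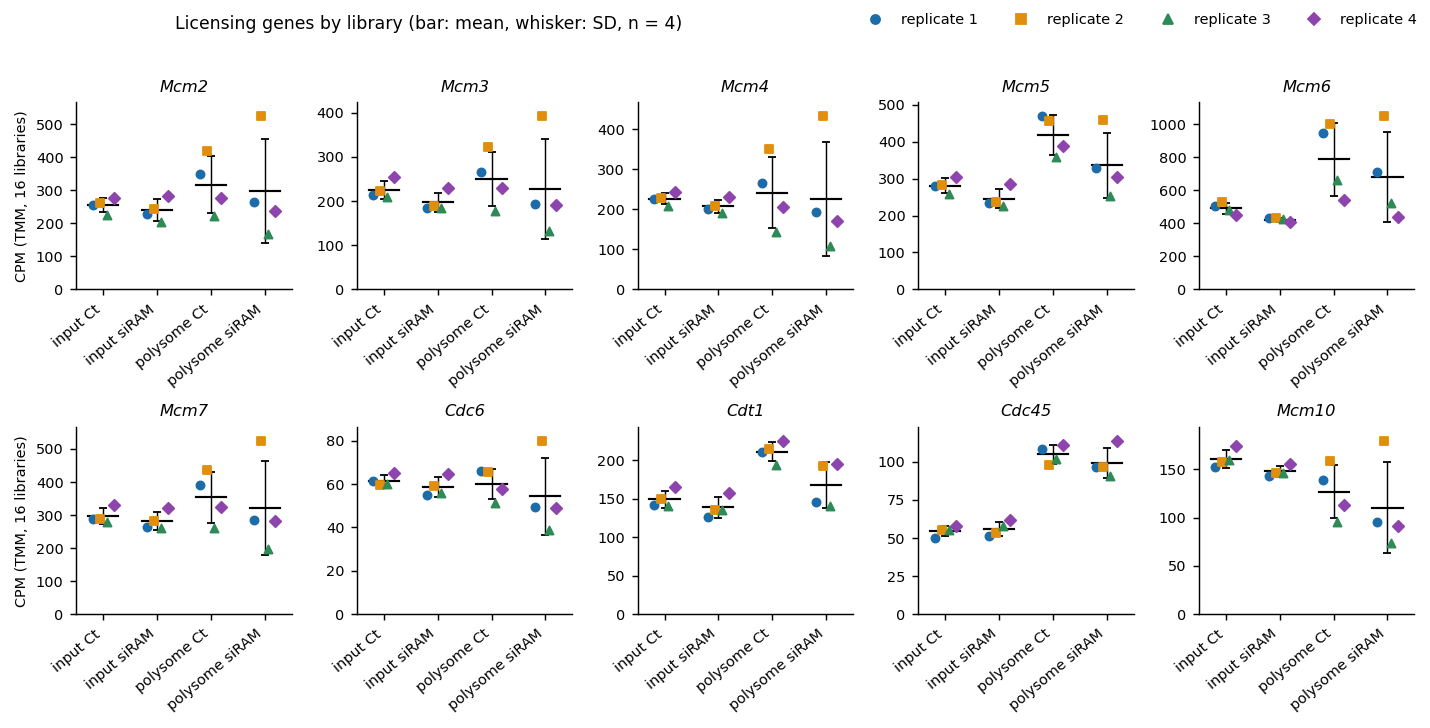
CPM (linear axis from 0, scaled by TMM over the 16 libraries) of the 10 licensing genes in the 4 groups, 1 point per library with the replicate shown by its marker, a bar for the mean and a whisker for the SD (n = 4). Relative to their mean, the polysome libraries spread more than the input libraries in both control and siRAM for every gene but Cdc45 and Cdt1. Replicate 2 (squares) is the highest polysome siRAM library for Mcm2 to Mcm7, Cdc6 and Mcm10.

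The first comparison asks how RAM knockdown changed the cytoplasmic level of the licensing mRNAs. The helicase subunits were lower in input siRAM with log2 fold changes of -0.08 (Mcm7) to -0.22 (Mcm6), whereas that of Cdc45 was 0.03. Without the block, 0 of the 10 genes passed the threshold (edgeR quasi-likelihood test, adjusted p under 0.05), against 12.9% of all genes tested (5.94% lower). Of the 10, 2 had an unadjusted p under 0.05, against 28% of all genes, and DESeq2 called 1 of the 10, against 15.4%. With the replicate block 6 fell (Mcm3, Mcm4, Mcm5, Mcm6, Mcm10 and Cdt1) and 0 rose, against 39.3% of all genes called and 19% called lower. The log2 fold change was negative for 9 of the 10 and its median was -0.12, against 0.00 over all genes tested.

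Mcm6, which encodes the most abundant ring subunit mRNA here, had 503, 529, 478 and 452 CPM in control input replicates 1 to 4 and 432, 431, 423 and 405 CPM in siRAM. Every siRAM library was below every control library, which held for no other member and for 8.68% of all genes in that direction. Its log2 fold change was -0.22 ± 0.07 (SE; edgeR adjusted p = 0.0766), and -0.21 ± 0.04 with the block (adjusted p = 0.000431). Mcm5, a partner of Mcm2 at the gate through which DNA enters the ring, had 279, 283, 257 and 305 CPM in control and 233, 237, 227 and 284 CPM in siRAM. The groups overlapped through siRAM replicate 4, yet each siRAM library was below its same-numbered control. The log2 fold change of Mcm5 was -0.20 ± 0.09 (adjusted p = 0.152), and -0.20 ± 0.04 with the block (adjusted p = 0.000869). Mcm3, the neighbour of Mcm5 in the ring, had 214, 223, 209 and 256 CPM in control and 184, 190, 184 and 230 CPM in siRAM. Replicate 4 was again the highest library of both groups. Mcm3 changed by -0.20 ± 0.09 (adjusted p = 0.187), and by -0.20 ± 0.04 with the block (adjusted p = 0.000741). Without siRAM replicate 4, Mcm3 and Mcm5 passed the threshold without the block (log2 fold change -0.28, adjusted p = 0.0243, and -0.27, adjusted p = 0.0164), 2 of the 10 genes against 19.6% of all genes (8.97% lower). That fit broke a pair, since it kept control replicate 4, the highest control library of both genes. In replicates 1, 2 and 3 the log2 ratios of same-numbered libraries were -0.21, -0.24 and -0.18 for Mcm3. For Mcm5 they were -0.26, -0.26 and -0.18.

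The remaining subunits had fold changes closer to 0. Mcm4, part of the Mcm4-Mcm6-Mcm7 core of the helicase, had 226, 229, 208 and 244 CPM in control and 201, 208, 191 and 230 CPM in siRAM. It was lower in all 4 pairs, by -0.13 ± 0.08 in log2 (adjusted p = 0.300) and -0.13 ± 0.04 with the block (adjusted p = 0.0151). Mcm7 had 289, 288, 279 and 331 CPM in control and 265, 281, 261 and 321 CPM in siRAM, with a log2 fold change of -0.08 (95% interval -0.26 to 0.11, adjusted p = 0.614). Mcm2 had 256, 261, 224 and 276 CPM in control and 229, 243, 204 and 283 CPM in siRAM, with a log2 fold change of -0.09 (95% interval -0.31 to 0.13, adjusted p = 0.614). Neither passed with the block (adjusted p = 0.15 for Mcm7 and 0.0990 for Mcm2), and in replicate 4 Mcm2 was higher in siRAM.

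Of the loaders, Cdt1, the licensing factor that Geminin inhibits, had 143, 150, 141 and 165 CPM in control and 127, 136, 135 and 158 CPM in siRAM. It was lower in all 4 pairs, by -0.11 ± 0.08 (adjusted p = 0.430) and by -0.11 ± 0.04 with the block (adjusted p = 0.0445). Cdc6, the ATPase that places Cdt1 and the ring on the origin, had 61.4, 59.7, 60.1 and 65.0 CPM in control and 54.7, 58.9, 55.8 and 64.8 CPM in siRAM. Its log2 fold change was -0.07 (95% interval -0.23 to 0.08, adjusted p = 0.538; 0.212 with the block). Mcm10, an initiation factor unrelated in sequence to the ring subunits, had 152, 157, 159 and 174 CPM in control and 143, 146, 146 and 156 CPM in siRAM. It was lower in every pair, by -0.12 ± 0.07 (adjusted p = 0.270) and -0.12 ± 0.04 with the block (adjusted p = 0.0256). Cdc45, which joins the ring in the active helicase, had 50.4, 55.3, 55.1 and 58.0 CPM in control and 51.4, 53.2, 58.0 and 61.5 CPM in siRAM. It was the member with a positive fold change, 0.03 (95% interval -0.13 to 0.20, adjusted p = 0.823). Over all members, 8 of 10 were lower in all 4 pairs, against 24.7% of all genes tested.

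The shares of Mcm6 and Mcm2 in the ring's mRNA overlapped between siRAM and control. Of the 6 subunits' summed CPM per kb of merged exon, Mcm6 made up 26.2% ± 2.23 in input Ct and 25.3% ± 2.28 in input siRAM (SD, n = 4). Mcm2 made up 9.08% ± 0.344 and 9.52% ± 0.676. In polysomes the share of Mcm6 was 31.6% ± 3.89 in control and 31.5% ± 4.78 in siRAM.

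**Figure D2:**
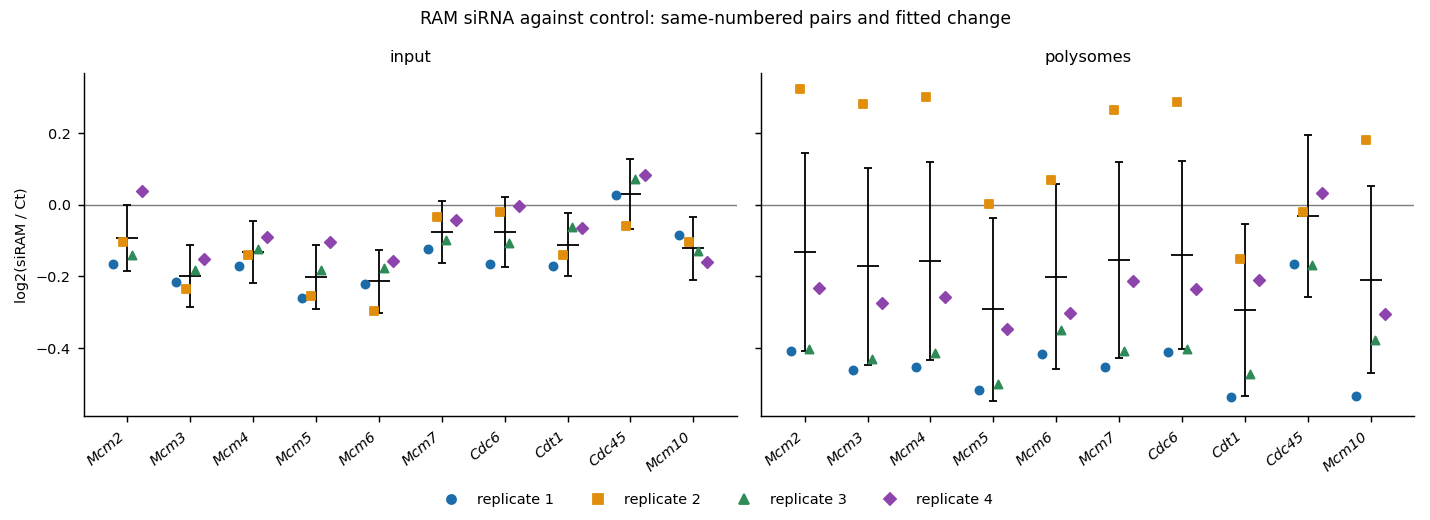
Log2 ratio of siRAM to Ct in input (left) and polysomes (right) for each same-numbered pair of libraries (points) and the edgeR estimate with the replicate block (bar, 95% interval). In input 8 of 10 genes are below 0 in all 4 pairs, whereas in polysomes replicate 2 (squares) lies above 0 for Mcm2 to Mcm7, Cdc6 and Mcm10 while replicates 1 and 3 lie below 0 for all 10.

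The second comparison asks whether the same mRNAs changed in polysomes. The log2 fold change was negative for all 10 genes, with a median of -0.10 against 0.06 over all genes, but 0 of 10 passed the threshold without the block (0.0234% of all genes) or with it (14.6%). The unadjusted p was under 0.05 for 0 of the 10 without the block (9% of all genes) and for 2 with it (28.2%). Neither DESeq2 nor limma-voom called a member, against 2.34% and 0.0234% of all genes. The groups of all 10 genes overlapped, against 6.57% of all genes whose groups did not. Cdt1 had 211, 215, 195 and 225 CPM in control polysomes and 145, 193, 140 and 195 CPM in siRAM. It was the member lower in all 4 pairs, as were 20.2% of all genes, with a log2 fold change of -0.28 (95% interval -0.64 to 0.08, adjusted p = 0.700; 0.0967 with the block). Mcm5 had 469, 457, 357 and 388 CPM in control and 327, 458, 253 and 305 CPM in siRAM, a log2 fold change of -0.27 (95% interval -0.70 to 0.16, adjusted p = 0.812; 0.120 with the block). Cdc45 had 109, 97.9, 102 and 111 CPM in control and 96.8, 96.5, 91.0 and 114 CPM in siRAM, and its log2 fold change of -0.03 was the closest to 0.

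Replicate 2 went against the other pairs for most members. Mcm2 had 349, 419, 222 and 277 CPM in control polysomes and 263, 524, 168 and 236 CPM in siRAM. Its log2 ratio was 0.32 in replicate 2 and between -0.41 and -0.23 in the others. Mcm4 had 266, 351, 144 and 205 CPM in control and 194, 432, 108 and 171 CPM in siRAM, again with siRAM above control in replicate 2 alone. The same held for Mcm3, Mcm5, Mcm6, Mcm7, Cdc6 and Mcm10, with log2 ratios of 0.00 to 0.29 in replicate 2, where Cdt1 (-0.15) and Cdc45 (-0.02) were negative. Without replicate 2 and with the block, 9 of the 10 genes fell (35.6% of all genes were called, 14.3% lower), by -0.40 for Mcm5 (adjusted p = 0.00053) to -0.29 for Mcm2 (adjusted p = 0.00589), and Cdc45 did not pass. That fit drops the replicate that went against the others. With the block and replicate 1, 3 or 4 left out, no member passed. Without the polysome siRAM library of replicate 2 and without the block, the median log2 fold change of the members was -0.44 and 0 of 10 passed (0.375% of all genes called). That fit broke a pair, since it kept polysome Ct replicate 2. The 10 genes summed to 3522 CPM in that library and to between 2270 and 3213 CPM in the other polysome Ct libraries. In replicates 3 and 4 alone with the block the same genes fell (25.3% of all genes called, 9.25% lower), and in replicates 1 and 2 alone 0 of 10 passed (3.29% of all genes called).

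The third comparison sets polysomes against input in control cells, which measures how much of each mRNA was carried on many ribosomes relative to other mRNAs. Here 5 of the 10 genes passed the threshold, 4 higher and 1 lower in polysomes, against 67.4% of all genes tested (33.1% higher and 34.3% lower), and the block gave the same 5 (72.3% of all genes). Cdc45 had the largest difference of the 10. It had 50.4, 55.3, 55.1 and 58.0 CPM in input and 109, 97.9, 102 and 111 CPM in polysomes, a log2 difference of 0.90 ± 0.10 (edgeR adjusted p = 1.76e-05), and the groups were far apart. Mcm6 was higher by 0.64 ± 0.18 (adjusted p = 0.00909), from 503, 529, 478 and 452 CPM in input to 947, 999, 664 and 539 CPM in polysomes. Mcm5 was higher by 0.53 ± 0.12 (adjusted p = 0.0027) and Cdt1 by 0.46 ± 0.11 (adjusted p = 0.00319), both with polysome libraries above every input library. The groups of these 4 genes did not overlap, against 30.8% of all genes in that direction, and the same 4 were higher in all 4 pairs, against 38.5% of all genes.

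Mcm10 was the member lower in polysomes. It had 152, 157, 159 and 174 CPM in input and 139, 158, 95.9 and 113 CPM in polysomes, a log2 difference of -0.39 ± 0.15 (adjusted p = 0.0385). The groups overlapped through polysome replicate 2, and the call was lost under 15 of 27 alternative settings. Mcm2 (0.28), Mcm7 (0.21), Mcm3 (0.11), Mcm4 (0.05) and Cdc6 (-0.07) did not pass, with 95% intervals from -0.44 to 0.67 across these genes. The sign of Mcm4 turned with the block (-0.02) and with library size alone as the scaling (-0.04).

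In RAM siRNA cells 2 of the 10 genes passed, both higher in polysomes, against 53.3% of all genes tested, and the same 2 passed with the block (58.8% of all genes). The groups of both did not overlap (21.6% of all genes in that direction). Cdc45 had 51.4, 53.2, 58.0 and 61.5 CPM in input and 96.8, 96.5, 91.0 and 114 CPM in polysomes, a log2 difference of 0.83 ± 0.15 (adjusted p = 0.00107). Mcm6 had 432, 431, 423 and 405 CPM in input and 710, 1048, 522 and 437 CPM in polysomes, a log2 difference of 0.68 ± 0.25 (adjusted p = 0.0432; 0.0453 with the block). Mcm6 lost the call under 13 of the 27 alternative settings, and Cdc45 kept it under all 27. Mcm5 (0.45, adjusted p = 0.0794) and Cdt1 (0.28, adjusted p = 0.196) had a positive ratio in all 4 pairs without passing, so that with Cdc45 and Mcm6 4 of the 10 genes did, against 31.2% of all genes. In replicates 3 and 4 alone with the block 7 members passed (73.4% of all genes), 6 of them lower in polysomes (37.4% of all genes). Without the polysome siRAM library of replicate 2, 3 members passed, 2 lower and 1 higher in polysomes (67% of all genes called), and the median log2 difference of the members was -0.13 in place of 0.24. That fit kept the input siRAM library of replicate 2, so it too broke a pair.

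**Figure D3:**
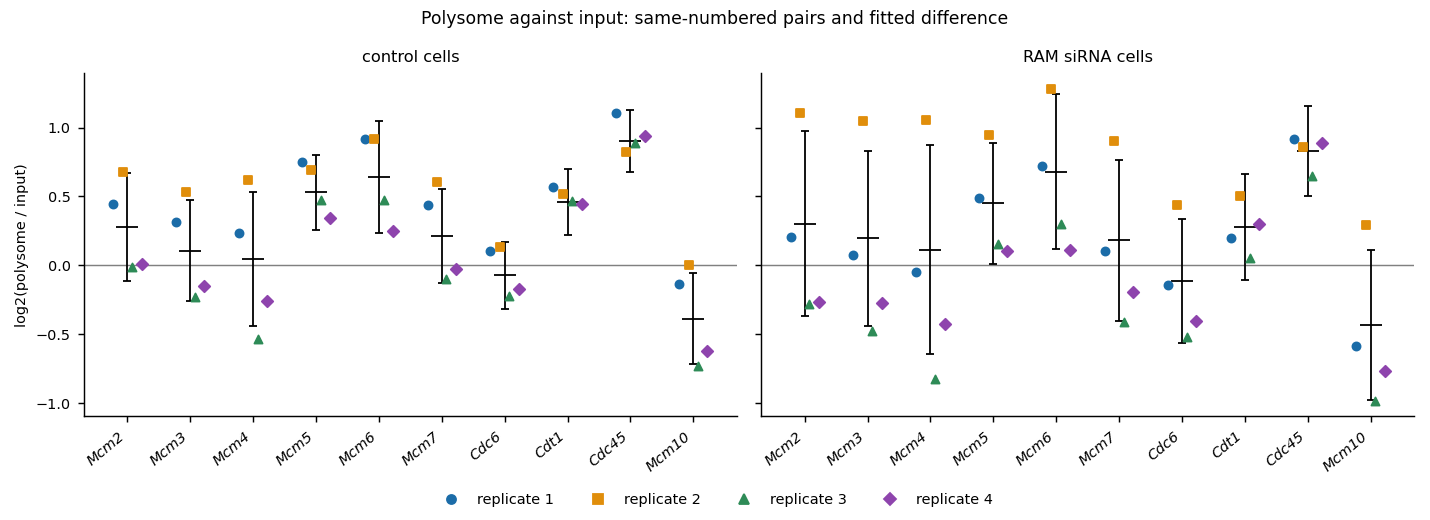
Log2 ratio of polysome to input CPM in control cells (left) and RAM siRNA cells (right) for each same-numbered pair (points) and the edgeR estimate without the block (bar, 95% interval). Cdc45 lies between 0.65 and 1.11 in all 8 pairs, whereas Mcm4 runs from -0.83 to 1.06.

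The fourth comparison tests whether RAM knockdown changed this polysome loading, as the interaction of fraction and siRNA over all 16 libraries. Loading is relative to other mRNAs here, so a change shared by all of them would not show. The study reports a significantly lower polysome to monosome ratio after RAM siRNA, from the RNA content of its gradient fractions. None of the 10 genes and 0 of the 12805 tested passed (0% called) without or with the block, and 100 of all genes but 0 members had an unadjusted p under 0.05. With the block 262 of all genes had an unadjusted p under 0.05, and DESeq2 called 1 gene, which was not a member. Without the block the estimate was most negative for Cdt1, at -0.22 (95% interval -0.62 to 0.18), followed by Mcm5 at -0.12 (-0.61 to 0.38) and Cdc45 at -0.11 (-0.44 to 0.21). It was near 0 for Mcm6 (0.00, -0.70 to 0.70) and Mcm2 (0.00, -0.82 to 0.81), and 0.06 (-0.71 to 0.83) for Mcm3. The interval was widest for Mcm4 (-0.93 to 1.00). With the block the intervals were -0.51 to 0.05 for Cdt1, -0.54 to 0.27 for Mcm5 and -0.78 to 0.72 for Mcm4. The 4 comparisons share libraries, so their values are not independent of one another.

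Replicates differed far more in polysomes than in input. The coefficient of variation of the 10 genes was 3.89% to 9.32% in input Ct (median over all genes 7.75%) and 5.77% to 36.7% in polysome Ct (17.6%). In siRAM it was 2.90% to 14.0% in input (9.39%) and 9.93% to 62.8% in polysomes (26.8%). Mcm4 spread most and Cdc45 least in both polysome groups. In control cells Cdc45 varied by 5.84% in input and 5.77% in polysomes, and Cdt1 by 7.42% and 6.01%. In polysome Ct, 9 of the 10 genes had a lower mean in replicates 3 and 4 than in replicates 1 and 2, from a ratio of 0.564 for Mcm4 to 0.987 for Cdt1, with Cdc45 at 1.03. The median ratio of the members was 0.706, against 0.961 over all genes, whose central 90% lay between 0.559 and 1.63. In polysome siRAM the median ratio of the members was 0.595, against 0.945 over all genes. In input the same ratio was 1.04 in control and 1.06 in siRAM.

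Loading split between these replicates in the same way. It was computed from the same polysome libraries, so it restates the difference above and is no separate support for it. Each of these fits held only 2 libraries per group. In control cells, replicates 1 and 2 alone (with the block) gave 8 members higher in polysomes, including Mcm2 (0.50, adjusted p = 0.0053), Mcm3 (0.36, adjusted p = 0.0178) and Mcm4 (0.36, adjusted p = 0.0369), against 72.1% of all genes called and 34.3% called higher. Replicates 3 and 4 alone gave Mcm4 (-0.40, adjusted p = 0.00692) and Mcm10 (-0.68, adjusted p = 1.69e-06) as lower in polysomes, with 74.6% of all genes called, 36.9% lower and 37.7% higher. Mcm5, Mcm6, Cdt1 and Cdc45 were called higher in both pairs of replicates. The labels name no batch, and what set replicates 1 and 2 apart from 3 and 4 was not tested.

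Other genes were ranked by how closely they followed the mean of the subunits across the 16 libraries. On log2(CPM + 0.5), the mean of Mcm2 to Mcm7 was most like Smarca5 (Pearson r = 0.988), Hsd17b4 (0.986), Ndc80 (0.982), Sec23b (0.976) and Map3k4 (0.974) among 9125 genes searched. Smarca5 encodes a chromatin remodeler and Ndc80 a kinetochore protein. Each subunit was compared with the mean of the other subunits, since it is part of the whole mean, and r ran from 0.737 for Mcm6 to 0.978 for Mcm2. With the mean of Mcm2 to Mcm7, r was 0.793 for Cdc6, 0.653 for Cdt1, 0.503 for Mcm10 and 0.382 for Cdc45. These values describe 16 libraries that share their group means, and no test was made of them.

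Other genes of replication control moved to different degrees in input. Over all genes tested, 12.9% passed without the block (5.94% lower) and 39.3% with it (19% lower). Of the 6 origin recognition complex genes 0 passed without the block and 3 fell with it, with a median log2 fold change of -0.10, and Orc2 had the largest (-0.18, edgeR adjusted p = 0.170; 0.00216 with the block). Of the 9 genes for licensing inhibition and Cdt1 turnover, 1 fell, Gmnn, which encodes Geminin (-0.33 ± 0.10, adjusted p = 0.0438). It had 68.9 ± 6.77 CPM in control and 54.8 ± 7.24 CPM in siRAM. With the block Fbxo31, named after its values were seen and coding for a substrate receptor that targets Cdt1 for degradation, rose as well (0.27, adjusted p = 0.156 without the block and 0.00792 with it). Of the 10 further activation and firing factors 0 passed without the block and 5 with it, 4 lower and 1 higher. That 1 was Donson, a factor that helps to bring GINS to the ring (0.21, adjusted p = 0.0947; 0.00201 with the block).

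The kinases and cyclins that fire origins included the largest change. Ccne1, which encodes cyclin E1, the G1/S cyclin partner of Cdk2, fell by 1.16 on the log2 scale (SE 0.10, edgeR adjusted p = 6.13e-05), from 319.3 ± 24.2 to 142.7 ± 19.97 CPM. Ccna2, which encodes the S phase cyclin A2, fell by 0.29 (adjusted p = 0.0412), and these were 2 of 7 genes in the list, with 4 lower and 2 higher under the block. Among 26 replisome genes 2 fell, Rfc5 of the clamp loader (-0.42, adjusted p = 0.0109) and Prim1 of primase (-0.27, adjusted p = 0.0369), and with the block 8 fell and 2 rose. Of all genes tested, 19% fell and 20.3% rose with the block. Of 4 tested genes that carry an MCM name without belonging to the ring, 0 passed without the block. Mcm3ap, an mRNA export factor, had the largest fold change (-0.13, adjusted p = 0.270; 0.0229 with the block).

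Of 11 genes of DNA precursor and histone supply, 3 fell: Rrm2 (-0.44, edgeR adjusted p = 0.00659) and Rrm1 (-0.40, adjusted p = 0.0093), the subunits of ribonucleotide reductase, and Uhrf1 (-0.37, adjusted p = 0.0133), which keeps DNA methylation through replication. With the block 8 of the 11 fell, against 19% of all genes tested. Of 15 genes of G2 and mitosis 4 fell: Ccnb2 (-0.66, adjusted p = 0.000143), Ccnb1 (-0.31, adjusted p = 0.0118), Nusap1 (-0.27, adjusted p = 0.0185) and Kif11 (-0.28, adjusted p = 0.0389), and 10 fell with the block. The median log2 fold change was -0.15 for the supply genes and -0.22 for the mitotic genes, against -0.12 for the 10 licensing genes and 0.00 for all genes. In polysomes without the block 0 genes of these 8 lists passed (0.0234% of all genes). With it Ccne1 (-1.31, adjusted p = 2.36e-05), Rfc5 (-0.52, adjusted p = 0.0108) and 8 others fell, against 4.97% of all genes.

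**Figure D4:**
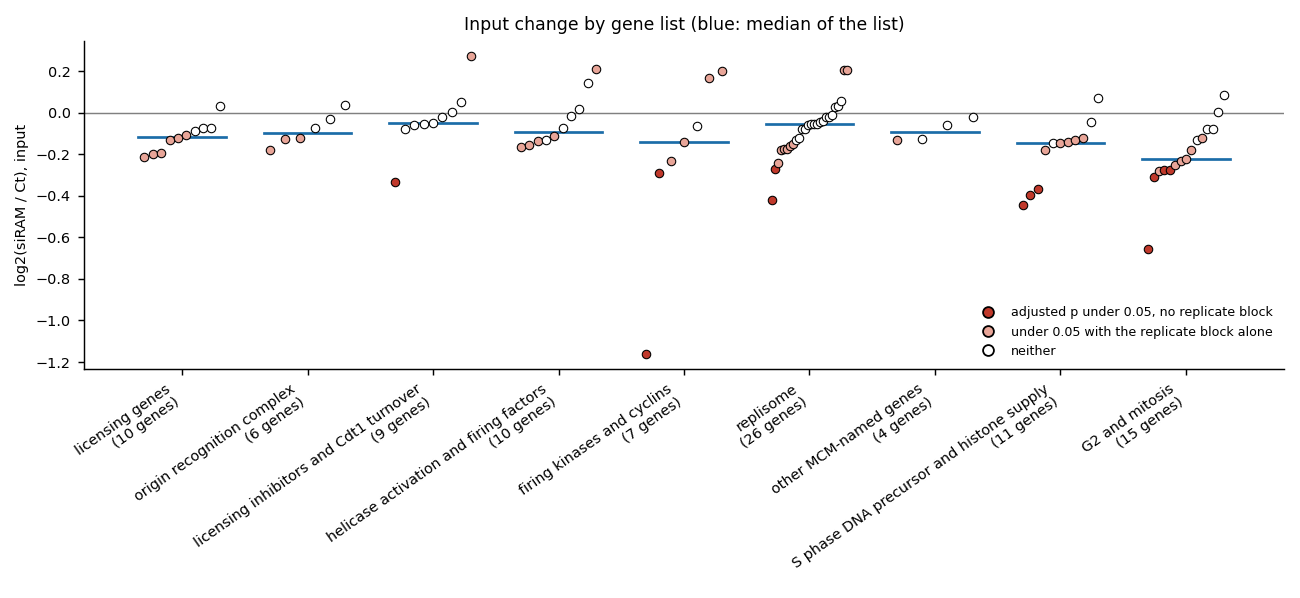
Log2 ratio of siRAM to Ct in input for each tested gene of the licensing set and of 8 other replication and cell cycle lists, in order within a list, filled by whether the gene passed the threshold, with the list median in blue. The licensing genes lie between -0.22 and 0.03, while Ccne1 (-1.16) and Ccnb2 (-0.66) stand well below the rest of their lists.

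Markers of the ESC state moved in the same comparison. All 8 ESC markers had a negative fold change in input, 3 fell without the block and 7 with it, with a median log2 fold change of -0.21. Of all genes tested, 5.94% fell without the block and 19% with it. Their summed level was 2875 to 3010 CPM in input Ct and 2449 to 2570 CPM in input siRAM, and their part in the change of the licensing genes was not tested. Of the 6 fibroblast genes 3 were tested, and Vim, which ESCs also express, fell (-0.55, adjusted p = 0.00505) from 228.7 to 156.7 CPM. Thy1 (0.19, adjusted p = 0.325) and Pdgfra (0.44, adjusted p = 0.112; 0.00309 with the block) had positive fold changes, and Col1a2 and Col3a1 were under 1 CPM. The summed level of that list, most of it Vim, was 211 to 263 CPM in input Ct and 155 to 203 CPM in input siRAM. Of the 6 trophoblast genes, whose sum was 33.9 to 37.2 and 22.9 to 30.7 CPM, Tfap2c fell (-0.38, adjusted p = 0.0493), and Cdx2 and Elf5 were under 1 CPM. Of the 6 endoderm genes Gata6 rose (0.61, adjusted p = 0.0196) from 2.82 to 4.31 CPM, and Sox7 (-0.77, adjusted p = 0.0573) fell with the block alone (adjusted p = 0.00113). The endoderm sums overlapped (8.21 to 9.75 and 8.14 to 11.1 CPM), as did those of the mesoderm genes (13.6 to 16.6 and 11.6 to 15.5 CPM), of which Eomes alone was tested (-0.31, adjusted p = 0.0798; 0.0068 with the block). The marker genes of other cell types were named after their values were seen. Their part was not tested either. In bulk RNA, fewer cells in a given phase of the cycle and less of an mRNA per cell cannot be told apart. CPM values are shares of a library, so a change of all mRNAs together would not show.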

How the data were processed

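Gene-level read counts were deposited by the authors as 1 table of whole-number counts, not normalized, with 46983 gene IDs and 16 columns, each matched to a sample by its title. Per the labels, libraries were made from ribosomal RNA-depleted total RNA with a stranded kit, and reads were aligned to mm10 with STAR 2.5.1b and counted with HTSeq. The annotation release and the strand setting of the counting are not given in the sources used here. Symbols were matched for 46488 IDs, and positions and exon lengths came from GENCODE vM21 (GRCm38).

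Genes with at least 1 CPM in at least 10 libraries were kept (12805). Each comparison was fitted with edgeR 4.0.16 in R 4.3.3 (TMM scaling, quasi-likelihood test, Benjamini-Hochberg over all genes tested, threshold 0.05), input and polysomes apart and the change of loading over all 16 libraries. Levels are CPM under 1 TMM scaling of the 16 libraries. The scripts were tested on simulated data. The planted changes were larger than those of the licensing genes in input, so changes as small as these were not tried. Same-numbered libraries of input Ct and input siRAM correlated in their deviations from the group means at r = 0.40 to 0.80 over 9135 genes, those of the polysome groups at 0.63 to 0.94, and those of input and polysomes at 0.24 to 0.57 in control and 0.30 to 0.71 in siRAM, so the numbers were taken to pair the samples. The pairing comes from the replicate numbers in the sample titles. Libraries of unlike number reached at most 0.20 between the input groups and 0.65 between the polysome groups. Between input and polysomes they reached 0.21 in control and 0.28 in siRAM. Polysome Ct replicate 1 correlated at 0.65 with polysome siRAM replicate 2 and at 0.625 with polysome siRAM replicate 1, so the numbers pair the polysome libraries less clearly. Alternatives included the replicate block, DESeq2 1.42.0, limma-voom (limma 3.58.1), other scalings and filters, and leaving out each replicate. Libraries of 1 group differed by more than counting noise, so each was kept as a sample of its own.

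The 10 genes and all lists were chosen with earlier results of these data known. Named were all 10 members, Ramac, from each other pathway list the genes past the threshold in input without the block (at most 20 over all lists, by smallest adjusted p) or else the gene with the largest fold change, and the 5 genes most like the mean of Mcm2 to Mcm7 (mean of at least 10 CPM). Fbxo31 and single marker genes were named after their values were seen. One marker list is not reported here.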

Additional observations from a re-analysis of the deposited data

Results flagged for a closer look

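Of 44 groups of 4 libraries examined for the 10 licensing genes and Ramac, 2 held a library far from the others, and chance gives about 1 in 20. Mcm3 had 230.1 CPM in input siRAM replicate 4 and between 184.0 and 189.8 CPM in the other input siRAM libraries, a gap of 0.875 of the group's range. Ramac had 2.65 CPM in input siRAM replicate 2 and between 3.09 and 3.15 CPM in the others, a gap of 0.885 of the range. The cause was not tested in either case.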

How the results depend on the processing

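Over the 10 licensing genes, 656 of the values under another setting kept their direction and side of the threshold, 42 gained a call, 10 lost one and 52 changed sign, and with a replicate left out the numbers were 561, 33, 18 and 68. Cdc45, Mcm5, Mcm6 and Cdt1 stayed higher in control polysomes than in input under all 27 alternatives. The causes of the changes were not tested. The spread between polysome libraries limits the precision.

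Of the members, 0 passed in input, 6 with the replicate block (4 by DESeq2 with the block, 6 by limma-voom with the block), 1 by DESeq2, 1 with library size alone and 6 in replicates 1 and 2 alone with the block. In polysomes 0 passed, and 9 in replicates 3 and 4 alone. For loading in control cells 5 passed, and 8 in replicates 1 and 2 alone. In RAM siRNA cells 2 passed, 1 with limma-voom, library size alone, at least 10 CPM or an adjusted p under 0.01, and 7 in replicates 3 and 4 alone. With a replicate left out, the members that passed numbered 0 to 7 in input, 0 to 9 in polysomes, 4 to 6 for loading in control cells and 1 to 5 in RAM siRNA cells. The block changed no other call of a member.

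Over all genes, 1651 passed in input, 5028 with the block (3149 by DESeq2, 5034 by limma-voom), 4644 in replicates 1 and 2 alone, 1024 with at least 10 CPM, 619 at an adjusted p under 0.01, 186 in 1 fit of all 16 libraries and 913 to 4967 with a replicate left out. In polysomes 3 passed, 1875 with the block (1588 by DESeq2, 1853 by limma-voom), 300 by DESeq2, 200 by the likelihood ratio test, 39 with no filter, 0 at an adjusted p under 0.01, 421 in replicates 1 and 2 alone, 3246 in replicates 3 and 4 alone, 453 in 1 fit of all 16 and 0 to 4558 with a replicate left out. For loading in RAM siRNA cells 6823 passed, and 4508 with at least 10 CPM. For the change of loading 0 passed, 2 by DESeq2 with the block, with the block within each fraction or in replicates 3 and 4 alone, and 1 by DESeq2 or the likelihood ratio test.

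Signs changed as follows, in log2. In input, Cdc45 was -0.015 in replicates 1 and 2 alone. For loading in control cells, replicates 3 and 4 alone gave Mcm2 -0.0059, Mcm3 -0.19, Mcm4 -0.40 and Mcm7 -0.065. Mcm4 was -0.024 with the block, -0.030 by limma-voom with the block, -0.026 by limma-voom, -0.043 with library size alone and -0.058 with at least 10 CPM. Cdc6 was 0.062 with no filter and 0.057 in replicates 1 and 2 alone. In RAM siRNA cells, replicates 3 and 4 alone gave Mcm2 -0.28, Mcm3 -0.38, Mcm4 -0.63 and Mcm7 -0.31. Mcm4 was -0.065 with the block, -0.042 by DESeq2 with the block, -0.077 by limma-voom with the block, -0.056 by limma-voom and -0.024 with library size alone. Cdc6 was 0.018 with no filter and 0.16 in replicates 1 and 2 alone.

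For the change of loading, Mcm2 was 0.041 by DESeq2, 0.041 with RLE scaling, 0.017 with upper-quartile scaling, 0.065 with no filter (Mcm7 0.0073) and 0.018 with at least 10 CPM. Replicates 1 and 2 alone gave Mcm2 0.19, Mcm5 0.065, Mcm7 0.073, Cdc6 0.11 and Mcm10 0.0054. Mcm3, Mcm4 and Mcm6 were -0.027, -0.078 and -0.039 by limma-voom with the block, -0.021, -0.070 and -0.036 by limma-voom, -0.18, -0.22 and -0.16 in replicates 3 and 4 alone, -0.024, -0.074 and -0.038 with the block within each fraction, and -0.031, -0.083 and -0.039 with the block per culture. With the block Mcm4 was -0.031 and Mcm6 -0.030, and with library size alone Mcm6 was -0.0056.

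With a replicate left out, Cdc45 in input ran from -0.012 to 0.069. In polysomes Mcm2 ran from -0.45 to 0.13, Mcm3 from -0.48 to 0.074, Mcm4 from -0.56 to 0.19, Mcm7 from -0.42 to 0.064 and Cdc6 from -0.33 to 0.0053. For loading in control cells Mcm3 ran from -0.044 to 0.25, Mcm4 from -0.21 to 0.25 and Cdc6 from -0.12 to 0.012, and in RAM siRNA cells Mcm2 from -0.11 to 0.48, Mcm3 from -0.21 to 0.37, Mcm4 from -0.42 to 0.33 and Mcm7 from -0.15 to 0.34. For the change of loading Mcm2 ran from -0.42 to 0.19, Mcm3 from -0.34 to 0.25, Mcm4 from -0.48 to 0.27, Mcm5 from -0.31 to 0.016, Mcm6 from -0.29 to 0.16, Mcm7 from -0.40 to 0.11, Cdc6 from -0.32 to 0.056 and Mcm10 from -0.42 to 0.071.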
